A study of Mus musculus with 38 samples.

Results

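Cdk18 and the ubiquitin control of aquaporin-2 (AQP2) were examined in mouse cortical collecting duct (CCD) through 7 genes chosen by name: Cdk18, Stub1, Nedd4, Ndfip1, Ndfip2, Cul5 and Usp4. All 7 were among the 55416 genes of the β-catenin RNA-seq table and 6 of the 7 were among the 5035 genes of the dDAVP RNA-seq table, where Cul5 was not listed. In the ATAC-seq table, which measures accessible chromatin, 147 of 270806 peaks carried the name of a member or lay within 50 kb of Cdk18. CCD segments were microdissected from kidneys of C57BL/6 mice. For the dDAVP comparison, wild-type mice received saline or dDAVP (desmopressin, which acts on the V2 receptor of vasopressin) for 5 days, with 4 RNA-seq and 3 ATAC-seq libraries per group. For the β-catenin comparison, 4 WT units and 4 MT units of 3 RNA-seq libraries each were profiled, where MT carries a mutation of the protein kinase A target site S552 of β-catenin. The labels of these 24 libraries conflict: each states dDAVP, 5 days and C57BL/6, WT and MT are told apart in the titles alone, and the deposited table is named as one without vasopressin. The labels do not say whether a library or unit number stands for a separate animal, so p-values measure the spread between libraries or units, which may be technical.

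AQP2 is the water channel that vasopressin sends to the apical membrane of principal cells, where it lets the duct reabsorb water. When the hormone is withdrawn, AQP2 is ubiquitinated on its cytoplasmic tail, taken back into the cell and sorted to lysosomes or proteasomes, so ubiquitin ligases, their adaptors and deubiquitinases set how much of the channel is kept. CDK18 is a PCTAIRE-family cyclin-dependent kinase that can phosphorylate the AQP2 tail and has been linked to the ligase STUB1. STUB1, also called CHIP, is a U-box ubiquitin ligase that works with heat shock chaperones. NEDD4 is a HECT-type ligase for which AQP2 lacks a direct docking motif, and the membrane proteins NDFIP1 and NDFIP2 can bridge ligase and channel. CUL5 is the scaffold of a cullin-RING ligase, known also as a vasopressin-activated calcium-mobilizing protein, and USP4 is a deubiquitinase reported to act on AQP2.

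The promoter sequences below are shown because Cdk18, Aqp2 and Niban1 had higher RNA with dDAVP, whereas Stub1 and Usp4 were not called in either RNA-seq comparison. RefSeq's promoter table (GRCm38.p6, the same build as mm10) held 6 of the 7 members. Each line gives the 250 bases before the start in that promoter table, 5′ to 3′ on the gene's own strand. That start can lie inside the gene span given below. For Usp4 it is at 108347831, while the span begins at 108346564, so the printed window lies within the span. For Cdk18 it is at 132139685, while the span ends at 132139698. Capitals mark matches on either strand to the cAMP response element half-site TGACG, the E-box CACGTG and the GC box GGGCGG. The Cdk18 window is chr1:132139686-132139935 (minus strand), the Aqp2 window chr15:99578806-99579055 (plus), the Niban1 window chr1:151571123-151571372 (plus), the Stub1 window chr17:25832920-25833169 (minus) and the Usp4 window chr9:108347581-108347830 (plus).
Cdk18: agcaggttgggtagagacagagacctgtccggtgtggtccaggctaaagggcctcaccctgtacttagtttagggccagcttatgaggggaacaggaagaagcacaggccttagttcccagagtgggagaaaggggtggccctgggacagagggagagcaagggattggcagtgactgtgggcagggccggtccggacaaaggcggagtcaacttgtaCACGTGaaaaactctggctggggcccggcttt
Aqp2: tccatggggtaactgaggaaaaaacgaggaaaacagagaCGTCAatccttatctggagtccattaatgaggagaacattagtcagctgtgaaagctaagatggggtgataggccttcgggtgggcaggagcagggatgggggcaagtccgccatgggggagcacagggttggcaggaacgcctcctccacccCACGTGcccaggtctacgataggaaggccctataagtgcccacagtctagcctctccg
Niban1: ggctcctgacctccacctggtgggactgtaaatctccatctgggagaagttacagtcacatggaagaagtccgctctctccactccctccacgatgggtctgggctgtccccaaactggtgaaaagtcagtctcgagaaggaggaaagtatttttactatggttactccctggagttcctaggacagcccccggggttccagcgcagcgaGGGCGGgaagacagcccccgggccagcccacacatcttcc
Stub1: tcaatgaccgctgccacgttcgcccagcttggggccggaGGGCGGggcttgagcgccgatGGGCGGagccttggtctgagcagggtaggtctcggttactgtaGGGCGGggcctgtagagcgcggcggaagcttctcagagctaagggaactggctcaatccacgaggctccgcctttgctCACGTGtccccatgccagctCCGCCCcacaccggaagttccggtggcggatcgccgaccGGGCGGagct
Usp4: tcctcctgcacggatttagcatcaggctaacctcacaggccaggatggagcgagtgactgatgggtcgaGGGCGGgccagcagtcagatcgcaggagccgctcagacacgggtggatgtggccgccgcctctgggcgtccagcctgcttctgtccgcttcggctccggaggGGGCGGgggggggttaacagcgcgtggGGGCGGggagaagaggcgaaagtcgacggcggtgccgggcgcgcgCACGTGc

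An E-box stood in the windows of Cdk18, Stub1, Usp4 and Aqp2, at 32, 69, 7 and 58 bases before the start, counted to its first base on the gene's strand. It stood in 6.02% of 32851 promoter windows of the same length. The half-site was found in the Aqp2 window, 211 bases before the start, and in the windows of Ndfip2 and the second Nedd4 start, and it stood in 17.8% of all windows. No window of a member held the full cAMP response element TGACGTCA, of which the half-site is a part (1.55% of all windows). The GC box stood in 32.7% of all windows. Stub1 had 5 matches, Usp4 had 3, the first Nedd4 start had 2, and Ndfip2 and Niban1 had 1 each. The windows of Cdk18, Cul5, Aqp2 and the second Nedd4 start had 0. The CG dinucleotide occurred 6 times in the Cdk18 window and 8 times each in those of Aqp2 and Niban1, against 24 in Stub1, 26 in Usp4 and 32 at the first Nedd4 start, with a median of 6 over all windows. The count was 9 at the second Nedd4 start and 11 in Ndfip2, and Cul5 had 17. These matches describe letters in the windows only.

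RNA-seq values are TPM, a transcript abundance that the authors scaled to transcript length and to the library's total. The dDAVP table lists only genes above 10 TPM in every one of its libraries. Depth was unknown for every library. Saline libraries 3 and 4 correlated least with the others (median r 0.863 and 0.839, against 0.913 to 0.934). All 9 principal cell markers were listed, and their summed level was 31126 to 34658 TPM with saline and 68997 to 92417 TPM with dDAVP, Aqp2 included. Aqp2 alone averaged 20171 and 60871 TPM. Aqp2 and Aqp3 were called higher and 7 markers were not called. By log2 change 7 of the 9 were above 0 and 2 below, with Scnn1g at 0.02 and Scnn1b at -0.51. The sum of 8 intercalated cell markers was 2953 to 4056 TPM with saline and 1881 to 2818 TPM with dDAVP. None of the 8 was called. Their log2 changes were below 0 for 7, from -0.94 (Slc4a9) to -0.06 (Slc4a1), and above 0 for 1 (Aqp6, 0.16). In a bulk sample fewer cells of a type and less RNA per cell cannot be told apart, and the part of cell composition in the values below was not tested. Of the proximal tubule markers, 3 of 7 were listed and summed to 404 to 7691 TPM with saline and 1000 to 9891 TPM with dDAVP, and none of 3 podocyte markers was listed. Of 3 thick ascending limb markers 1 was listed, Umod, at 84.1 to 825 TPM with saline and 20.9 to 5253 TPM with dDAVP. Material from these other segments thus differed widely between libraries.

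Cdk18 (ENSMUSG00000026437, chromosome 1, 132113547 to 132139698, minus strand, mm10) was the member that changed with dDAVP. It was at 32.24, 32.55, 47.83 and 18.98 TPM in saline libraries 1 to 4 and at 177.56, 177.29, 125.96 and 183.29 TPM in dDAVP libraries 1 to 4. The groups did not overlap: the lowest dDAVP library was 2.63 times the highest saline library, and the widest pair differed 9.66-fold. The mean rose from 32.9 ± 11.8 to 166 ± 26.9 TPM (SD, n = 4 per group), a 5.05-fold difference of means. On the scale of log2(TPM + 1) the change was 2.35 (SE 0.29, 95% confidence interval 1.72 to 2.99, limma adjusted p = 0.00345), so that the interval runs from 3.29-fold to 7.95-fold. With the CCD number of the libraries as a block the change was again 2.35 but was not called (limma adjusted p = 0.0576). The authors' deposited table gave a log2 ratio of 2.39 and a DESeq adjusted p of 0.00243.

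By level Cdk18 moved from rank 4211 to rank 1022 of the 5035 listed genes, and by log2 fold change it ranked 7. It was 1 of 28 genes called higher, 0.556% of those tested. That count was 17 without saline library 1, 16 without saline 2, and 15, 13, 6 and 16 without dDAVP library 1, 2, 3 or 4, and Cdk18 was called in each of these fits. Of the listed genes, 179 (3.56%) had dDAVP values all above their saline values. Saline libraries 3 and 4, which stood apart, held the highest and the lowest saline values of Cdk18. Without both, the log2 change was 2.31 (limma adjusted p = 0.00163).

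**Figure D1:**
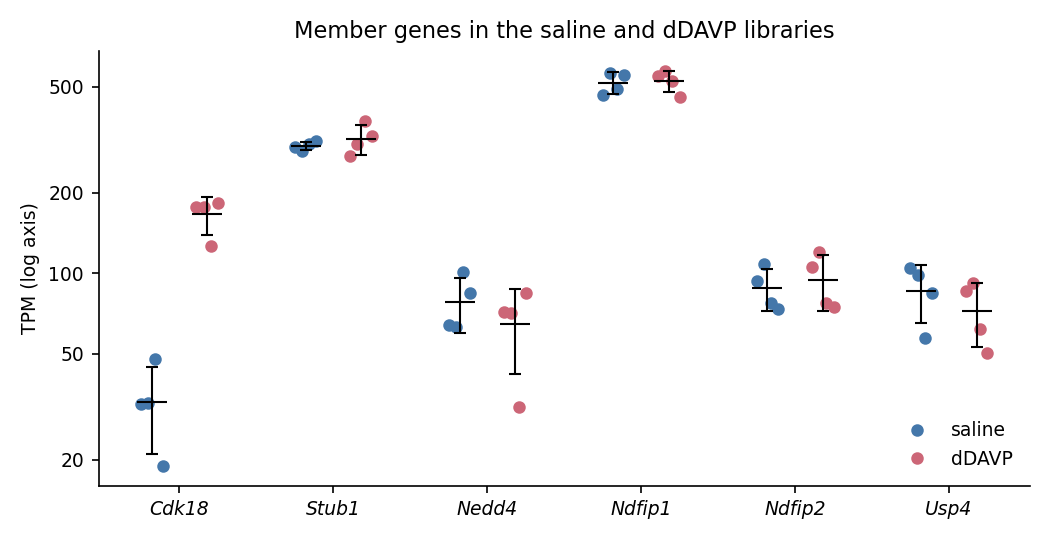
TPM (log axis) of the 6 listed member genes in each saline (blue) and dDAVP (red) library, with black bars at the mean ± SD (n = 4 per group). Cdk18 lies at 18.98 to 47.83 TPM with saline and 125.96 to 183.29 TPM with dDAVP, while the groups of the other members overlap.

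The ligases and their adaptors showed no call. Stub1 (chromosome 17, 25830634 to 25832919) was at 297.3, 287.29, 303.61 and 313.26 TPM with saline and 274.04, 305.54, 371.89 and 326.4 TPM with dDAVP. The lowest and the highest of these 8 libraries were both dDAVP libraries, and the log2 change was 0.08 (SE 0.15, interval -0.24 to 0.41, limma adjusted p = 0.878). Nedd4 (chromosome 9, 72662331 to 72749851) was at 63.91, 63.14, 100.79 and 84.1 TPM with saline and 71.68, 70.99, 31.59 and 84.36 TPM with dDAVP. Its low mean with dDAVP came from library 3 alone, and the log2 change was -0.33 (SE 0.32, interval -1.04 to 0.39, limma adjusted p = 0.753). Without dDAVP library 3 the log2 change of Nedd4 was -0.02.

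Of the adaptors, Ndfip1 (chromosome 18, 38418907 to 38465197) was the most abundant member. It was at 463.44, 563.18, 489.92 and 551.48 TPM with saline and 548.12, 570.75, 525.2 and 456.33 TPM with dDAVP, and the ranges overlapped almost whole. The log2 change was 0.02 (SE 0.14, interval -0.29 to 0.33, limma adjusted p = 0.969). Ndfip2 (chromosome 14, 105258591 to 105309298) was at 93.44, 108.15, 77.44 and 73.73 TPM with saline and 105.96, 120.32, 77.11 and 74.93 TPM with dDAVP. In both groups libraries 1 and 2 were above libraries 3 and 4, and the log2 change was 0.09 (SE 0.24, interval -0.43 to 0.61, limma adjusted p = 0.919).

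The deubiquitinase gene Usp4 (chromosome 9, 108346564 to 108392545) was at 104.78, 98.33, 56.97 and 84.44 TPM with saline and 85.7, 91.6, 61.59 and 50.4 TPM with dDAVP. The groups overlapped, with saline library 3 below 3 of the 4 dDAVP libraries, and the log2 change was -0.25 (SE 0.28, interval -0.87 to 0.36, limma adjusted p = 0.785). The intervals of Stub1 and Ndfip1 exclude a rise above 1.32-fold and 1.26-fold, and a fall below 0.844 and 0.82 of the saline level. Those of Nedd4 and Usp4 are wider and reach down to 0.486 and 0.549 of the saline level, so a fall of that size is not excluded. AQP2's own transcript, given for context, rose from 20171 ± 1573 to 60871 ± 8577 TPM (SD, n = 4; log2 1.59, SE 0.18, limma adjusted p = 0.0028). Under quantile normalization its log2 change was 0.42 and the call was lost (limma adjusted p = 0.696). That scaling gives every library the same set of values, and Aqp2 had the highest mean level in both groups. The scaling can therefore show little of a rise in this gene.

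The gene families around the members were described by lists, with 0.695% of all genes called in either direction and a median log2 change of -0.06. Of 15 PCTAIRE kinases, related PFTAIRE kinases and partners (cyclins and 14-3-3 proteins), 8 were listed; Cdk18 rose and 7 were not called (median 0.24). Cdk16, the other listed PCTAIRE kinase, averaged 70.6 ± 20.8 TPM in saline and 80.3 ± 26.7 TPM in dDAVP libraries (n = 4, limma adjusted p = 0.894). Ywhah, the 14-3-3 eta gene, was at 124 ± 31.5 and 227 ± 42.9 TPM with no overlap of the groups (log2 0.88, limma adjusted p = 0.163).

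Of 9 NEDD4 family ligases, 3 were listed and 0 called: Itch, Nedd4 and Nedd4l, the ligase of the epithelial sodium channel, with log2 changes of -0.59, -0.33 and 0.09. Of 10 adaptors of these ligases, 8 were listed and 0 called (median 0.02). Ndrg1 was at 0.48 and Txnip, an arrestin-domain protein, at -0.49.

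Of 22 chaperones and cofactors of STUB1, 20 were listed and 0 called, with 15 below 0 and a median of -0.25. Hspa1a, an inducible heat shock protein 70, averaged 86.5 ± 40.8 TPM in saline and 31.9 ± 9.1 TPM in dDAVP libraries (n = 4, log2 -1.33, limma adjusted p = 0.192), and Bag2, a cochaperone that inhibits STUB1, averaged 104 ± 14.7 and 64.6 ± 12 TPM (log2 -0.69, limma adjusted p = 0.263). The groups did not overlap for either gene, nor for Ube2v1, a ubiquitin-conjugating enzyme variant (log2 -0.36, limma adjusted p = 0.626), as was so for 253 of all genes in this direction (5.02%). Hspa8, the constitutive chaperone, averaged 809 ± 267 and 679 ± 133 TPM with overlapping groups.

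Of 33 components of the CUL5 complex and of neddylation, which activates cullins, 17 were listed and 0 called (median 0.04). On the log2 scale the 4 genes of smallest p were Nedd8, the modifier itself (0.38), Asb8, a substrate receptor of CUL5 ligases (0.58), Rbx1, a RING subunit of cullin ligases (0.30), and Ube2f, a NEDD8-conjugating enzyme (-0.56). Of 7 other cullins, 4 were listed and 0 called (median -0.27), and Cul1, at -0.38, had groups that did not overlap. Of 24 deubiquitinases, 13 were listed and 0 called (median 0.00), with Otub1 at 0.50 and Usp2 at -0.40. The other lists gave no call either. Listed were 5 of 6 ubiquitin and E1 genes, 12 of 15 genes of endosomal sorting (median 0.13) and 8 of 12 other kinases (median -0.20). These kinases were chosen by name, and whether they act on AQP2 was not tested. Sgk1, an aldosterone-induced kinase of the last list, varied widely with saline, at 516 ± 412 TPM against 204 ± 23.9 TPM with dDAVP (log2 -0.91, limma adjusted p = 0.559).

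The β-catenin table gives all 7 members in 24 further libraries. In WT units the order of mean levels was Ndfip1 (491 TPM), Stub1 (285 TPM), Nedd4 (111 TPM), Usp4 (91.5 TPM), Ndfip2 (89.4 TPM), Cul5 (37.2 TPM) and Cdk18 (30.8 TPM). Usp4 and Ndfip2 did not differ beyond the spread of the units, which ran from 87.0 to 95.3 and from 84.9 to 91.5 TPM. Cul5 and Cdk18 overlapped as well, at 34.5 to 41.0 and 25.0 to 37.0 TPM. Of the other PCTAIRE kinases, Cdk16 was at 124 TPM and Cdk17 at 12.5 TPM, so Cdk18 lay between them. The related PFTAIRE kinases Cdk14 and Cdk15 were at 28.9 and 0.193 TPM.

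No member was called between MT and WT. None of 15013 tested genes was called (0.0%), while 683 genes (4.55%) had an unadjusted p below 0.05 and limma over all 24 libraries with the unit as a correlated block called 1 gene. The log2 changes of Stub1, Nedd4, Ndfip1, Ndfip2, Cul5 and Usp4 lay between -0.03 and 0.10 (limma adjusted p = 0.969 to 0.999). Ndfip1 was at 491 ± 26.2 TPM in WT and 526 ± 28.5 TPM in MT units (SD, n = 4; log2 0.10, SE 0.06, limma adjusted p = 0.969). The authors' deposited table gave a ratio of 1.07 with p = 0.02 for it, from a test whose name is not given in the sources used here. Cul5 (chromosome 9, 53614581 to 53667507) was at 37.7, 35.4, 41.0 and 34.5 TPM in WT units 1 to 4 and at 38.8, 36.5, 36.2 and 34.1 TPM in MT units 1 to 4. Its log2 change was -0.03 (SE 0.07, interval -0.18 to 0.13), and its spread between the libraries of a unit (SD 0.21 in log2) was larger than that between the 8 units (0.09).

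Cdk18 was the member that varied most between units, with an SD of 0.45 in log2 over the 8 unit means against 0.05 to 0.09 for the other members. It was at 27.1, 34.2, 37.0 and 25.0 TPM in WT units 1 to 4 and at 38.6, 25.5, 28.4 and 64.1 TPM in MT units 1 to 4. MT unit 4 stood above all others, with libraries at 64.7, 68.3 and 59.23 TPM, whereas the other 21 libraries reached at most 39.95 TPM. The group means were 30.8 ± 5.69 TPM for WT and 39.1 ± 17.5 TPM for MT (SD, n = 4; log2 0.26, SE 0.27, interval -0.36 to 0.88, limma adjusted p = 0.986). Without MT unit 4 the log2 difference was -0.0038. Relative to the mean of the other 7 units, MT unit 4 was 2.08 times as high in Cdk18, rank 31 of 8842 genes with a mean of 10 TPM or more. Aqp2 varied as much between units (SD 0.45 in log2) but did not share this pattern. It was at 14197 TPM in MT unit 4, within the 11231 to 27628 TPM of the other units.

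**Figure D2:**
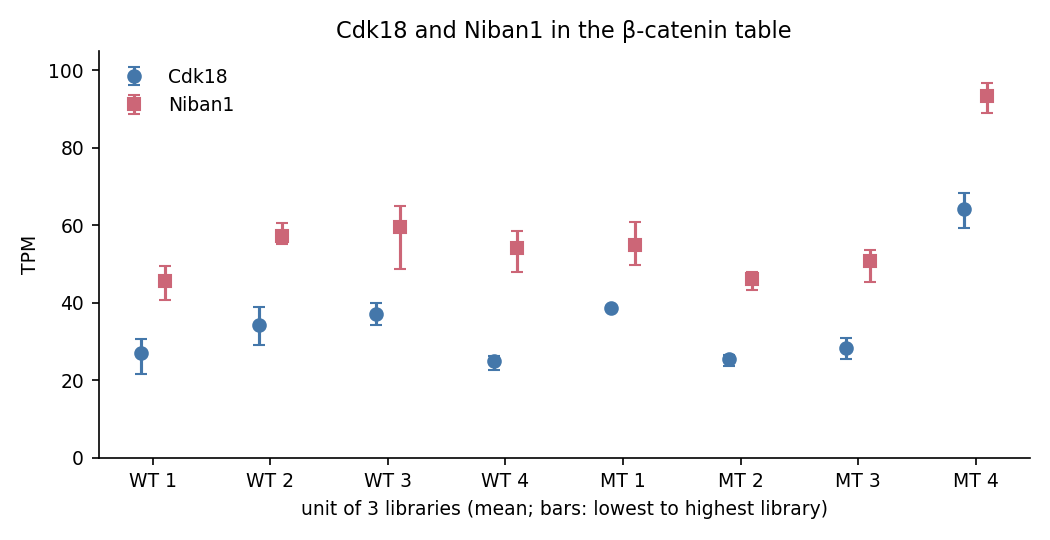
TPM of Cdk18 (circles) and Niban1 (squares) in the 8 units of the β-catenin table, as the mean of 3 libraries with bars from the lowest to the highest library. Both genes are highest in MT unit 4, at 64.1 and 93.3 TPM.

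All 24 libraries, although labelled dDAVP, had Cdk18 at 21.7 to 68.3 TPM. In the other table the saline libraries were at 19.0 to 47.8 TPM and the dDAVP libraries at 126 to 183 TPM. The tables were normalised separately, so these levels are given side by side and were not tested.

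**Figure D3:**
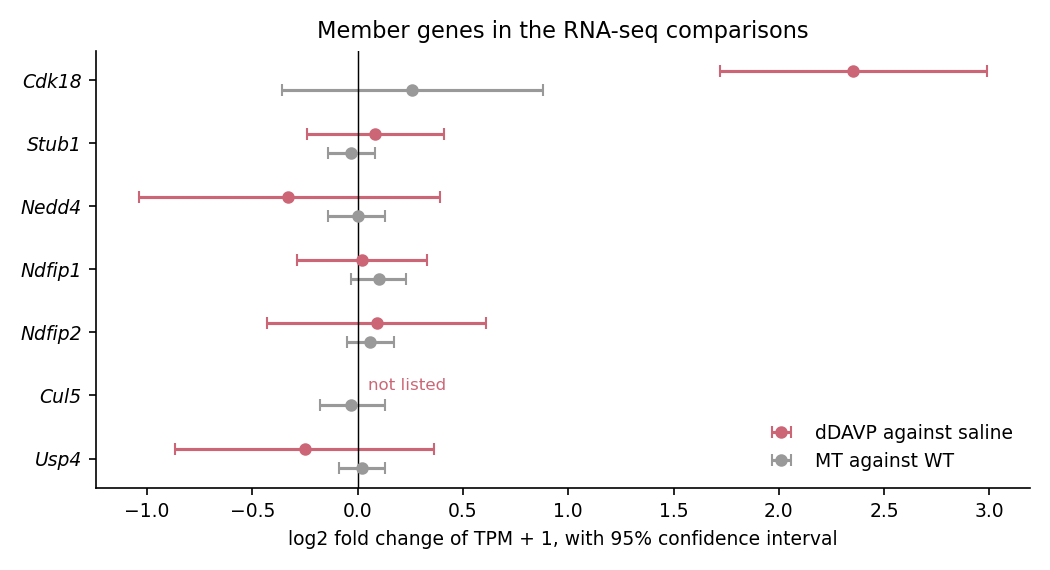
Log2 fold change of TPM + 1 with its 95% confidence interval for each member, dDAVP against saline (red, 4 against 4 libraries) and MT against WT (grey, 4 against 4 units). The interval of Cdk18 with dDAVP, 1.72 to 2.99, is the one that does not include 0, and Cul5 has no dDAVP value.

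The gene lists around the members gave 0 calls between MT and WT as well. WT and MT values were fully separated for 4 listed genes, Ccny, Cdk1, Bag2 and Uba3; of all genes tested, 1.85% were so with MT higher and 1.17% with MT lower. Ccny, a membrane-bound cyclin that activates kinases of these families, was at 51.9 ± 2.86 TPM in WT and 44.7 ± 3.4 TPM in MT units (n = 4, log2 -0.21, limma adjusted p = 0.969). Cdk1 was at 4.14 ± 2.14 and 9.29 ± 1.73 TPM (log2 1.09, limma adjusted p = 0.969). Bag2 was at 75.7 ± 4.56 and 87.4 ± 5.04 TPM (log2 0.21), and Uba3, a subunit of the enzyme that activates NEDD8, at 47.8 ± 3.12 and 53.6 ± 2.49 TPM (log2 0.16). Cul3, the cullin that pairs with KLHL adaptors, was at 75.3 ± 19.2 and 41.8 ± 28 TPM with overlapping groups (log2 -1.01, limma adjusted p = 0.969). The median log2 change of the 10 lists lay between -0.03 and 0.10, against 0.01 over all genes.

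Niban1, a stress-responsive gene, had the pattern most like that of Cdk18 in each RNA-seq table, by the Pearson correlation r of log2(TPM + 1). Over the 8 libraries of the dDAVP table its r with Cdk18 was 0.974, followed by Pafah1b3 (0.956), Litaf (0.948), Aqp2 (0.942) and Rpl21 (0.94) among 5035 genes, and these values mostly reflect the difference between the groups. Niban1 was at 40.2, 34.38, 66.77 and 27.78 TPM with saline and 255.26, 254.67, 232.55 and 166.42 TPM with dDAVP. As for Cdk18, saline library 3 was the highest and saline library 4 the lowest of its group. Among the dDAVP libraries the lowest was library 4 for Niban1 and library 3 for Cdk18. Niban1 rose by 2.45 in log2 (SE 0.28, n = 4, limma adjusted p = 0.0028).

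Over the 24 libraries of the β-catenin table r was 0.877 for Niban1, followed by Morf4l2 (0.844), Etfbkmt (0.836), Ppt1 (0.821) and Scfd1 (0.815) among 8842 genes. In MT unit 4 Niban1 was at 93.3 TPM, against 52.6 TPM on average in the other units. Over the 21 libraries without MT unit 4 the correlation of Niban1 with Cdk18 was 0.599, rank 198, so the first rank rested on that unit. The other members had r between -0.0197 and 0.463 with Cdk18 over the 24 libraries, and between -0.398 and 0.238 over the 8 libraries of the dDAVP table.

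Chromatin accessibility was taken from the authors' deposited table, which gives the log2 mean signal of each group (n = 3 libraries), a log2 fold change and an adjusted p for each peak, with values per library not used here. Of the 147 peaks of the members, 2 were called higher with dDAVP, 14 lower and 131 were not called at an adjusted p below 0.05. Over all peaks 0.846% were called higher and 5.98% lower. Both peaks called higher were Cdk18 peaks. By name, Cdk18 had 31 peaks with 2 called higher and 4 lower, and Ndfip1 had 29 with 4 called lower. Nedd4 had 47, Ndfip2 20, Stub1 5, Cul5 3 and Usp4 3, each with 1 called lower.

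The called gains lay beyond the 3′ end of Cdk18. The peak chr1:132106637-132107015 had a log2 signal of 3.63 with saline and 4.81 with dDAVP, with a log2 fold change of 1.29 (the authors' adjusted p = 0.0277). The peak chr1:132107351-132107518 had 1.43 and 3.22, with a log2 fold change of 1.86 (the authors' adjusted p = 0.0451). They were intergenic, 379 and 168 bp wide, and began 6532 and 6029 bp past the end of the gene, about 32.86 and 32.25 kb from its start. The first lay 266 bp from the end of Gm37120, a long noncoding RNA gene at 0.03 to 0.56 TPM in the β-catenin table. At an adjusted p below 0.01 neither was called.

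Within 50 kb of Cdk18 there were 40 peaks, of which 2 were called higher and 5 lower. Beyond the 3′ end 11 of 14 peaks had a log2 fold change above 0 (median 0.60). In the gene body 7 of 17 were above 0 (median -0.13), and upstream of the start 2 of 9 (median -0.28). Over all peaks 111443 of 270806 were above 0. Of the 40 peaks, 9 were not named after Cdk18, and 7 of these 9 were above 0 (median of the 9, 0.53). Those 7 were named after Mfsd4a and lay beyond the 3′ end. The peak of highest signal beyond the end, chr1:132067469-132068246 in the neighbouring gene Mfsd4a, was 1 of the 5 called lower (log2 fold change -0.58, the authors' adjusted p = 0.0367). The strongest peak above 0 there, chr1:132084808-132085962, had a log2 signal of 6.24 and 6.66 and was not called (log2 fold change 0.53, the authors' adjusted p = 0.0744). Weak peaks had higher fold changes over the whole table, with medians of 0.64 where the mean log2 signal was 0 to 1, -0.02 where it was 2 to 3 and -0.50 where it was 8 to 9. Relative to the median of all peaks of like signal, the median beyond the 3′ end was 0.83, against 0.05 in the body and 0.02 upstream.

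**Figure D4:**
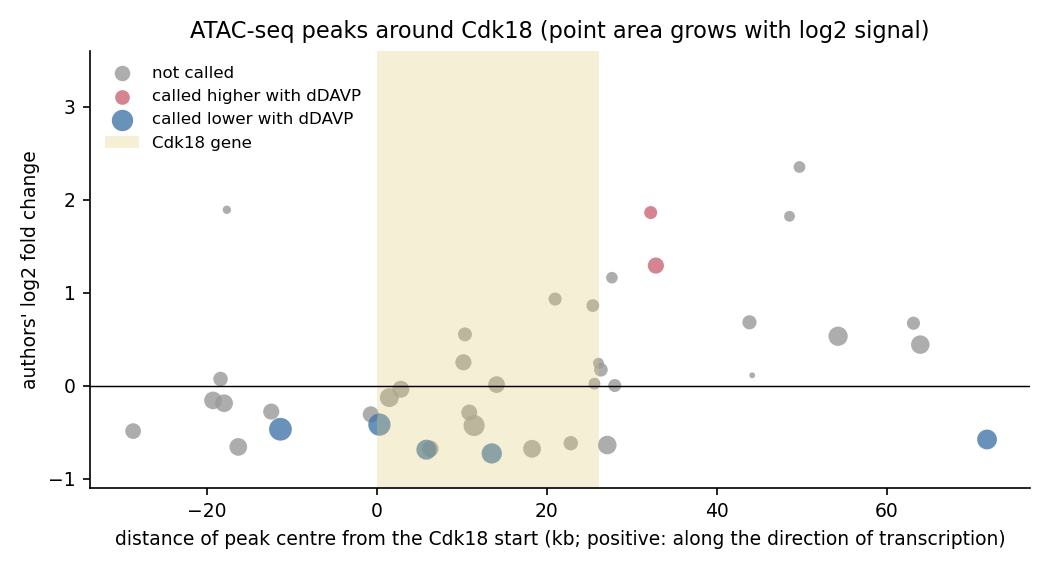
The authors' log2 fold change of the 40 ATAC-seq peaks within 50 kb of Cdk18 against the distance of the peak's centre from the start (kb), with point area growing with the mean log2 signal. The 2 peaks called higher (red) lie at 32.25 and 32.86 kb, beyond the shaded gene, and the 5 called lower (blue) include the start-site peak.

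At the start of Cdk18 accessibility was lower with dDAVP, while its RNA was higher. The peak over the start, chr1:132138648-132140064, which covers the promoter window printed above, had a log2 signal of 9.12 with saline and 8.59 with dDAVP (log2 fold change -0.42, the authors' adjusted p = 0.0427). A pair of peaks in the first intron, chr1:132125907-132126365 and chr1:132133586-132134069, had -0.73 and -0.69. The peak of highest signal near the gene, chr1:132150094-132151909, lay 10409 bp upstream (log2 signal 9.56 and 8.98, log2 fold change -0.47). That peak held a RefSeq start of its own and overlapped Gm30242, a long noncoding RNA gene. Relative to peaks of like signal the log2 fold changes of these 4 peaks became 0.08, -0.24, -0.20 and -0.01, so the sign of the Cdk18 start-site peak turned.

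The start-site peaks of all 7 members had log2 fold changes between -0.69 and -0.41, and 6 of 7 were called lower, where 48.1% of 12359 start-site peaks were. Of the 3566 start-site peaks with a mean log2 signal of 8 to 9, as the members' peaks had, 67.7% were called lower and the median was -0.52, so the members were near their background. The value was -0.69 for Nedd4, -0.63 for Ndfip2, -0.57 for Ndfip1, -0.51 for Usp4, -0.50 for Cul5 and -0.41 for Stub1, whose start-site peak was not called (the authors' adjusted p = 0.102). A second Stub1 promoter peak, chr17:25833287-25833604, was called (-0.64, the authors' adjusted p = 0.0211). The Aqp2 promoter peak had -0.22 and was not called (the authors' adjusted p = 0.399).

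Away from the start sites, Ndfip1 held the called loss furthest from its background. The peak chr18:38457945-38458271, in an intron, had a log2 signal of 4.06 with saline and 2.47 with dDAVP (log2 fold change -1.46, the authors' adjusted p = 0.0349), or -1.28 relative to peaks of like signal. A pair of intergenic peaks named after Ndfip1, chr18:38483094-38484391 and chr18:38502096-38502991, had -0.55 and -0.79, or -0.06 and -0.36 relative to peaks of like signal. Of the 29 Ndfip1 peaks 24 were below 0 (median -0.43), where 159363 of all 270806 peaks were (median -0.17), and relative to peaks of like signal the Ndfip1 median was -0.13. Its RNA was not called.

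**Figure D5:**
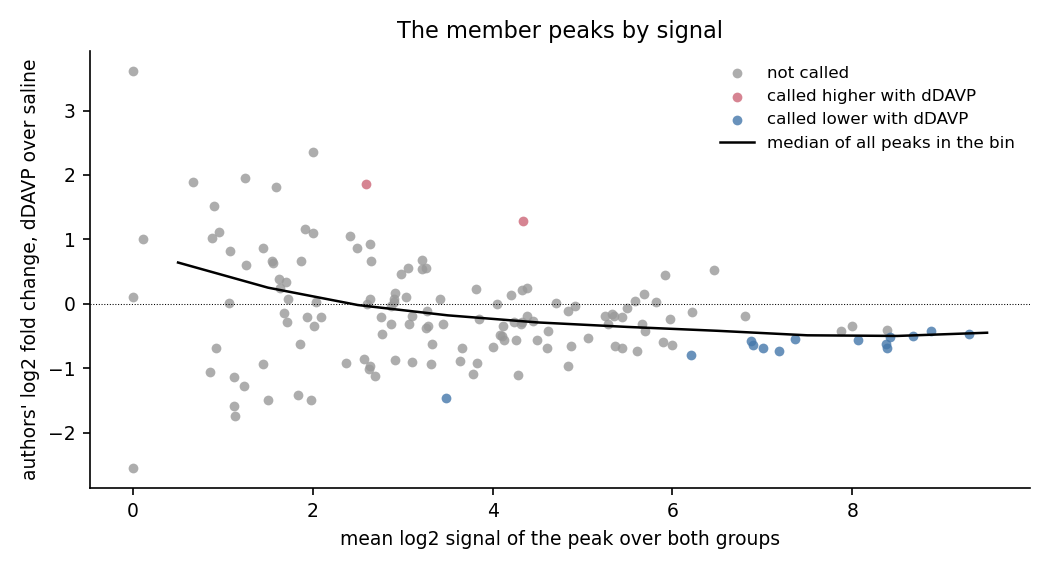
The authors' log2 fold change (dDAVP over saline) of the 147 member peaks against their mean log2 signal, with the median of all peaks per bin of signal as a line. The 2 gains (red) lie above the line at signals of 2.59 and 4.34, and the losses (blue) above a signal of 8 lie near the line, which is at -0.50 to -0.45 there.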

How the data were processed

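The members and gene lists were chosen with earlier results of these data known. Per the submitters' processing notes, RNA-seq used STAR and RSEM and ATAC-seq used cutadapt 3.4, Bowtie2, MACS2 and DiffBind on mm10, with settings not given in the sources used here. Both RNA-seq tables hold TPM deposited by the authors, and per the file headers the dDAVP table keeps genes above 10 TPM in every library. Its 8 log2 copies of the library columns were not used. The authors' deposited log2 ratios, the ratio of MT to WT and the authors' p-value columns are quoted as such. The ATAC-seq table holds the authors' log2 group means, log2 fold change and adjusted p-value, so no test was added. TPM keeps no depth.

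RNA-seq was tested with limma 3.58.1 (R 4.3.3, trend, Benjamini-Hochberg over all genes, threshold 0.05, two-sided) on log2(TPM + 1) after dropping genes whose mean TPM was under 1, 4 against 4 libraries (5035 genes) or means of 3 libraries per unit, 4 against 4 (15013 genes). The fit was tested on simulated data. A named gene was a member, Aqp2, a called gene of a list or one of its 4 smallest p, or one of the 5 genes most like Cdk18. Hspa8, Cdk16 and the other PCTAIRE and PFTAIRE levels were chosen after their values were seen. Start-site peaks overlap a RefSeq start. Ndfip1 had no RefSeq promoter entry, so its peak was the most open one over either end of its RefSeq gene. That peak is not among the start-site peaks counted as background. Alternatives were another pseudocount, filter, scaling, block, library left out, threshold and window.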

Additional observations from a re-analysis of the deposited data

Results flagged for a closer look

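Of 30 groups of 4 values (the members and Aqp2 in each RNA-seq group where they are listed), 1 held a value whose gap to its nearest neighbour was large for the range of the group: Cdk18 in dDAVP library 3, the lowest of the 4 dDAVP libraries at 126 TPM, with the gap making up 0.895 of the range. Chance flags about 1 in 20 groups. The same library was the lowest for Nedd4, at 31.59 TPM. Cdk18 in MT unit 4 did not reach this mark (0.662 of the range).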

How the results depend on the processing

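Over 16 alternatives the log2 change of Cdk18 with dDAVP lay between 2.06 and 2.55 (limma adjusted p = 0.00163 to 0.0576), and it was called in all except the fit with the replicate block by CCD number (2.35, adjusted p = 0.0576). Leaving out 1 library gave 2.12 to 2.55. The labels do not say whether the numbers pair the libraries. Each library's deviations from the mean of its own group were correlated over genes. For same-numbered dDAVP and saline libraries these deviations correlated at 0.19, 0.23, 0.0873 and -0.149, and 2 of 4 matched their own number best. These values do not settle whether the libraries are paired. The count of 35 genes called with dDAVP fell to 8 (7 of them higher) under the replicate block and lay between 7 and 47 with 1 library left out, with fewer than 35 in 6 of those fits (18 and 17 when saline 1 or 2 was dropped, and 16, 23, 7 and 19 when dDAVP 1, 2, 3 or 4 was). Leaving out saline 3 and 4 together was chosen after seeing the data. Between MT and WT the count was 0 to 5 with 1 unit left out (5 without MT unit 4, 2 without WT unit 4) and 1 with all 24 libraries, and Cdk18 lay between -0.0038 and 0.43. The block by unit number left the count at 0 and Cdk18 at 0.26. None of 176 fits of the other members gave a call, and 13 turned a value near 0: Ndfip1 (-0.03 to 0.09) and Ndfip2 (-0.04 to 0.19, and -0.12 without saline 3 and 4) with dDAVP, and between MT and WT Nedd4 (-0.04 to 0.04, and 0.01 under quantile normalization), Cul5 (-0.06 to 0.02) and Usp4 (-0.0037 to 0.04). For Aqp2, the most abundant gene, quantile normalization gave 0.42 with dDAVP (limma adjusted p = 0.696) and 0.11 between MT and WT. The scaling makes the highest values of all libraries alike, so it can show little of a change in this gene. Between MT and WT Aqp2 lay at -0.29 to 0.15 when 1 unit was left out. Of the 16 called member peaks 6 remained at an adjusted p below 0.01, all lower. Windows of 20 and 100 kb gave 15 and 20 called peaks, of which 2 and 4 were higher. Relative to peaks of like signal the Cdk18 start-site peak was at 0.08. Depth is unknown for all libraries, which limits what can be said of small differences.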

Other observations

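The 28 genes called higher with dDAVP were all listed in the β-catenin table. In MT unit 4, 6 of these 28 (Abhd3, Car15, Cdk18, Fads1, Gm20518 and Niban1) had all 3 libraries above the 21 other libraries, as had 59 of 8842 genes with a mean of 10 TPM or more (0.667%). In WT unit 2 this held for 2 of the 28, Aqp2 and Ldha, and for 70 of the 8842 genes (0.792%). In the other 6 units it held for 0 of the 28, and for 0.0792% to 0.588% of the 8842 genes. MT unit 4 was the highest unit for 9 of the 28 genes and WT unit 2 for 10, and the share over all genes was not computed for this measure. The 28 genes were chosen on the dDAVP libraries and no test was made of these counts. The principal cell marker sum was 29212 TPM in MT unit 4, within the 25079 to 48729 TPM of the WT units, and the intercalated cell marker sum was 5766 TPM, against 4756 to 5637 TPM in the WT units.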
